A study of Homo sapiens with 15 samples.

Results

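Pseudogenes that appeared or vanished, and the protein-coding genes they were copied from, were followed through 15 RNA-Seq libraries of BEAS-2B cells exposed to PM2.5. The 3 pseudogenes were RPLP0P2, IGFL1P1 and NMRAL2P, and the 3 parents were RPLP0, IGFL1 and NMRAL1, which makes 6 of the 58219 genes in the count table. The pseudogenes were chosen by their counts in the 24-h libraries with 30 µg/cm2 against the 24-h controls, where they rose or fell, and each parent was added because of its sequence, whatever its counts did. Values of that contrast are therefore descriptions without a test. Each gene was found by matching its Ensembl identifier to its symbol, and 6 of 6 passed the filter on low counts. RPLP0P2 passed only through the condition in which it was high, so passing the filter is no support for any of them.

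BEAS-2B is an immortalized line of human bronchial epithelial cells, grown here in serum-free medium on collagen-coated plates. PM2.5 is airborne particulate matter of small diameter, here collected in Beijing in winter and extracted into water. The 24-h groups were vehicle control (medium alone), 1 µg/cm2 and 30 µg/cm2 of PM2.5, and the repeated protocol comprised control and 1 µg/cm2 of PM2.5 given daily until collection on day 7, with the cells washed between exposures. The methods state 6 daily exposures and the labels 7. Each condition had 3 libraries from independent experiments numbered 1 to 3, all from the same line, so differences between donors were not sampled. Poly-A selected RNA was read as single ends of 50 bases, and 21460981 to 34724765 reads were counted on genes per library. At this depth 3 counts, taken as the floor, equal 0.0866 to 0.149 CPM (counts per 1000000 counted reads), an allowance for counting error only.

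A pseudogene is a copy of a gene that no longer encodes the parent's full protein. Processed pseudogenes are copies of a spliced mRNA that were written back into the genome, so they lack the introns of the parent, whereas unprocessed pseudogenes arise by duplication of the gene itself. Some are transcribed, and because they resemble the parent, short reads can be assigned to the wrong member of a pair. RPLP0 encodes P0 of the ribosomal stalk, the part of the large subunit that recruits translation factors, and it is often used as a reference gene in PCR. IGFL1 encodes a small secreted protein of the IGF-like family. NMRAL1 encodes a protein that senses NADPH, and NMRAL2P has been described as a transcript that responds to NRF2, the transcription factor of the oxidative stress response.

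On GRCh38, RPLP0P2 (ENSG00000243742.5) lay at chr11:61615036-61639449 on the plus strand and was annotated as a transcribed processed pseudogene. RPLP0 (ENSG00000089157.15) lay at chr12:120196686-120201235 on the minus strand. Aligned bases of the pair were 94.6% identical over 1092 bases, with a longest identical run of 53 bases. The start of the coding sequence of RPLP0 and the copy of it in RPLP0P2 are shown because reads of 50 bases from this region would have to be told apart by the 6 differing bases, given in capitals. The RPLP0P2 stretch lay at chr11:61636680-61636779 (plus strand), and the RPLP0 stretch spanned an intron within chr12:120199440-120200783 (minus strand).

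RPLP0P2: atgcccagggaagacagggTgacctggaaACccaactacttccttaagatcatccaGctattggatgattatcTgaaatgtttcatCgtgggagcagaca

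RPLP0: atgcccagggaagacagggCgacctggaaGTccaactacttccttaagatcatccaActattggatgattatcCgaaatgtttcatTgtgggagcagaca

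Further into the coding sequence, one window of 50 bases carried 0 differences between RPLP0P2 (chr11:61637460-61637509) and spliced RPLP0 (within chr12:120196897-120197333), so a read from it could come from either gene.

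RPLP0P2: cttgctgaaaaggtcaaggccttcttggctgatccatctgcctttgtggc

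RPLP0: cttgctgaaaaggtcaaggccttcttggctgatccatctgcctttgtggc

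The counted exons of RPLP0P2 reached well beyond the copied part. They formed 6 blocks, and the windows within 2 differences of RPLP0 that lay inside a block were all in block 6, a block of 2865 bases at chr11:61636585-61639449. Block 2, printed next, lay at chr11:61624985-61625127 (plus strand) and had no window with a near match elsewhere in the genome, so it shows the kind of sequence by which a read can be placed at RPLP0P2 alone.

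RPLP0P2 block 2: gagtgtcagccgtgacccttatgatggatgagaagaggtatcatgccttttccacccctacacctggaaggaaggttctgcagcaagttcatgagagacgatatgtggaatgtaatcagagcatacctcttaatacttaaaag

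IGFL1P1 (ENSG00000268879.1, chr19:46196238-46197323, plus strand) was annotated as an unprocessed pseudogene and lay upstream of IGFL1 (ENSG00000188293.5, chr19:46229752-46231243, plus strand) on the same chromosome. The pair was 82.8% identical over 319 aligned bases, with a longest identical run of 23. NMRAL2P (ENSG00000171658.8, chr3:185959943-185980872, plus strand), a transcribed unprocessed pseudogene, and NMRAL1 (ENSG00000153406.13, chr16:4461680-4495763, minus strand) were 71.1% identical over 349 aligned bases, with a longest identical run of 18. Among coding windows of 50 bases inside ungapped parts of each alignment, the closest are shown for both pairs, with the 8 differing bases in capitals. They lay at chr19:46197069-46197118 and chr19:46230318-46230367 (plus strand) for the IGFL1 pair, and at chr3:185971718-185971767 (plus strand) and chr16:4466250-4466299 (minus strand) for the NMRAL1 pair.

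IGFL1P1: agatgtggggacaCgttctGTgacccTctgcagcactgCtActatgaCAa

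IGFL1: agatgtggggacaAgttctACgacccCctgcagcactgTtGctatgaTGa

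NMRAL2P: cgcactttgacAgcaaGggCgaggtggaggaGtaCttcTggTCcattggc

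NMRAL1: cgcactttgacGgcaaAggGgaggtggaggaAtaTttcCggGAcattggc

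To state how many reads could be shared, every window of 50 bases in the counted exons and spliced transcripts of the 6 genes was searched against the genome and the transcripts. Of 3997 windows of RPLP0P2, 321 (8.03%) occurred unchanged elsewhere and 1134 (28.4%) occurred elsewhere with at most 2 differences. Only a part of these matches was to the parent, since 4 windows were identical in RPLP0 and 444 (11.1%) lay within 2 differences of it. Of 4862 windows of RPLP0, 706 (14.5%) occurred unchanged elsewhere, 4 of them in RPLP0P2, 500 in RPLP0P6 and 196 in RPLP0P9. IGFL1P1, IGFL1 and NMRAL2P had 0 windows of 311, 574 and 2719 within 2 differences of any other place. NMRAL1 had 70 of 3988 (1.76%), none of them in NMRAL2P. By sequence, therefore, RPLP0P2 and RPLP0 was the one pair of the 3 in which reads of this length could be exchanged between pseudogene and parent. The treatment of reads with several placements and the strand used in counting are not given in the sources used here, and the table does not say in which exon a counted read lay.

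**Figure D1:**
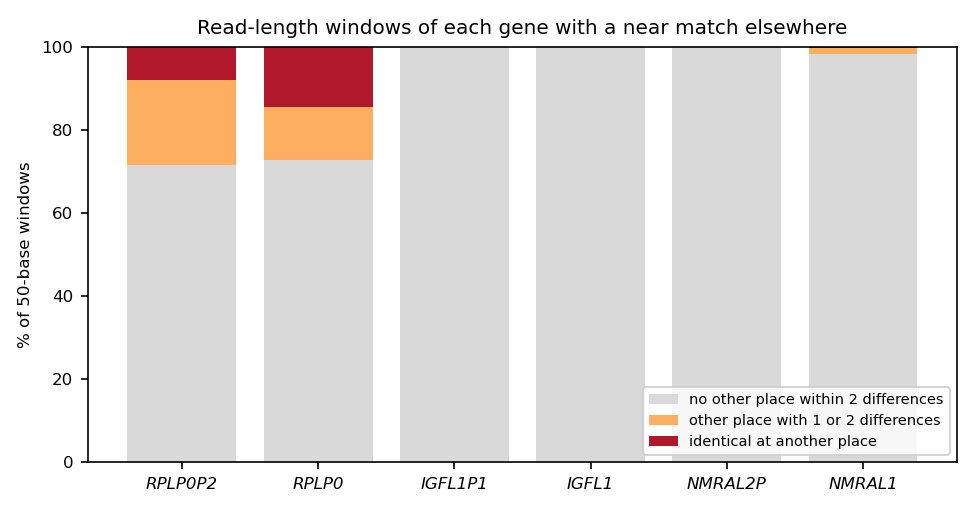
Share of all 50-base windows of each gene (y axis, %) that occurred unchanged at another place (red), occurred elsewhere with 1 or 2 differences (orange) or had no such match (grey). RPLP0P2 reached 28.4% and RPLP0 27.2% for both kinds of match together, NMRAL1 1.76%, and the other 3 genes 0%.

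Among the 15 libraries, those of 24-h experiment 2 stood apart from experiments 1 and 3. Without these 3 libraries the number of genes called for 30 µg/cm2 went from 1420 to 3430, and values of members that moved without them are given both ways. Epithelial markers were present throughout, with 8 of 8 epithelial markers (KRT8, KRT18 and others) at 10 CPM or more in every library and 3 of 3 leukocyte and 3 of 3 endothelial markers under 1 CPM in every library, where their summed levels were 0 to 0.231 and 0 to 0.345 CPM. The mesenchymal markers VIM and FN1 were also at 10 CPM or more in every library, and CDH2 was at 1.09 to 8.86 CPM. Fewer transcribing cells and less RNA per cell cannot be told apart in these bulk libraries.

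RPLP0P2 was almost silent except after 30 µg/cm2 of PM2.5. Its counts in experiments 1, 2 and 3 were 1, 1 and 0 in the 24-h controls and 397, 38 and 246 after 30 µg/cm2. In the same order they were 0, 1 and 3 after 1 µg/cm2 at 24 h, 3, 3 and 5 in the controls of the repeated protocol, and 1, 3 and 3 after daily exposure. All 3 libraries of the highest concentration thus lay above the other 12, with experiment 2 the lowest of them. As levels, they were 13.1, 1.32 and 11.8 CPM. Against the floor of 3 counts per library in the controls, the mean of 8.72 ± 6.44 CPM (SD, n = 3) was at least 77.4-fold higher. Without experiment 2, its lowest library, the bound was 126-fold, and without treated replicate 1 or 3 it was 58.1-fold or 63.8-fold. It is a bound on the means, and experiment 2 alone stood at 1.32 CPM beside a floor of 0.141 CPM in its own control.

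RPLP0, which supplies P0 to the ribosome, was among the abundant transcripts in every library. Its levels in experiments 1, 2 and 3 were 1574, 2149 and 1841 CPM in the 24-h controls and 1498, 2827 and 1607 CPM after 30 µg/cm2. Both groups overlapped, and experiment 2 was the highest of each. The log2 fold change was 0.09 (SE 0.26), and without experiment 2 it was -0.15 (SE 0.11), so its direction changed without that experiment. On a per-length scale, RPLP0P2 reached 2.23 ± 1.65 RPKM (CPM per kilobase of exon) after 30 µg/cm2, beside 494 ± 184 RPKM of RPLP0 in the same libraries (SD, n = 3).

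Set against the parent, RPLP0P2 gave 8.71, 0.466 and 7.33 counts per 1000 RPLP0 counts after 30 µg/cm2 and at most 0.0766 in each of the other 12 libraries. Within the highest concentration, the library with the most RPLP0 counts (81508, experiment 2) had the fewest RPLP0P2 counts. RPLP0P6, the RPLP0 pseudogene that shares most windows with RPLP0, gave 36 to 137 counts, or 1.07 to 1.78 per 1000 RPLP0 counts, over all 15 libraries. RPLP0P6 stayed in a narrow ratio to RPLP0 in the libraries in which RPLP0P2 did not. With 500 windows identical in RPLP0 and RPLP0P6 but 4 in RPLP0 and RPLP0P2, these ratios are unlike measures of shared reads. Whether reads were shared was not tested. The other 10 RPLP0 pseudogenes in the table had at most 7 counts in any library.

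NMRAL2P was low in both controls and had its highest levels after 30 µg/cm2. Counts in experiments 1, 2 and 3 were 17, 11 and 11 in the 24-h controls, 50, 19 and 47 after 1 µg/cm2 and 665, 326 and 422 after 30 µg/cm2. The corresponding levels were 0.512, 0.518 and 0.390 CPM, then 1.70, 0.942 and 1.65 CPM, then 21.9, 11.3 and 20.2 CPM. None of the 3 groups overlapped with another, where 2.31% of tested genes were higher without overlap after 1 µg/cm2, and experiment 2 was the lowest of both PM2.5 groups. For 30 µg/cm2 the log2 fold change was 5.22 (SE 0.37), which is 37.3-fold. For 1 µg/cm2 it was 1.61 (SE 0.37), or 3.05-fold. Both comparisons use the same 3 control libraries that served to choose the gene, so no p-value is given for either. Without experiment 2 the values were 5.51 (SE 0.28) and 1.88 (SE 0.32).

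NMRAL1 did not share this pattern. Its levels in experiments 1, 2 and 3 were 8.70, 13.1 and 10.4 CPM in the 24-h controls, 7.92, 20.9 and 9.87 CPM after 1 µg/cm2 and 6.41, 14.2 and 7.14 CPM after 30 µg/cm2. The groups overlapped, with experiment 2 highest in each. The log2 fold change for 30 µg/cm2 was -0.21 (SE 0.34). Without experiment 2 it was -0.51 (SE 0.16), and the remaining treated libraries lay below the remaining controls. After 1 µg/cm2 it was 0.26 (SE 0.34, Benjamini-Hochberg adjusted p = 1 by edgeR's quasi-likelihood test), and -0.09 (SE 0.15) without experiment 2.

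Per length, the order of the NMRAL1 pair turned around with the concentration. In the 24-h controls NMRAL2P was at 0.180 ± 0.0275 RPKM and NMRAL1 at 3.03 ± 0.625 RPKM. After 30 µg/cm2 NMRAL2P was at 6.77 ± 2.16 RPKM and NMRAL1 at 2.61 ± 1.21 RPKM (SD, n = 3 for each). NMRAL2P counts per 1000 NMRAL1 counts went from 58.8, 39.6 and 37.4 in the controls to 3410, 797 and 2832, and experiment 2 was the lowest of the treated libraries. At 1 µg/cm2 they were 215, 45.0 and 167, so experiment 2 lay within the control range.

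IGFL1P1 was the pseudogene that was lost. Its counts in experiments 1, 2 and 3 were 11, 23 and 6 in the 24-h controls, 18, 10 and 12 after 1 µg/cm2 and 1, 0 and 0 after 30 µg/cm2. All 3 libraries of the highest concentration were at or under 1 count and below every library of the other groups. The libraries after daily exposure, at 3, 2 and 2 counts, and control replicate 3 of the repeated protocol, at 3, were also at or under the floor. The separation from these libraries is therefore within the allowance for counting error. Relative to the floor of 3 counts per library, the control mean of 0.542 ± 0.472 CPM (SD, n = 3) made the treated level at least 4.70-fold lower. Control replicate 2 carried much of this bound, which was 2.36-fold without that library and 2.24-fold without experiment 2 in both groups. For 1 µg/cm2 the log2 fold change was -0.03 (SE 0.57), and without experiment 2 it was 0.91 (SE 0.55), so no direction can be given.

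IGFL1 was also lower after 30 µg/cm2, and no library of this parent overlapped with its controls. Levels in experiments 1, 2 and 3 were 0.993, 3.58 and 1.70 CPM in the 24-h controls and 0.329, 0.936 and 0.287 CPM after 30 µg/cm2, the highest treated library lying just below the lowest control. The log2 fold change was -1.96 (SE 0.54), or 3.89-fold lower. Without experiment 2 it was -2.10 (SE 0.45). After 1 µg/cm2 IGFL1 was at 0.986, 2.18 and 1.23 CPM, and the log2 fold change of -0.51 (SE 0.50) had an adjusted p-value of 1 (edgeR). Without experiment 2 that value was -0.26 (SE 0.36). None of the 3 parents was called after 1 µg/cm2, where 0.0625% of tested genes were. Per length, IGFL1P1 and IGFL1 were at 1.51 ± 1.31 and 2.72 ± 1.74 RPKM in the 24-h controls. They were at 0.0304 ± 0.0527 and 0.673 ± 0.472 RPKM after 30 µg/cm2 (SD, n = 3). Within each control library IGFL1P1 was the lower. In experiments 1, 2 and 3 it was at 0.920, 3.01 and 0.590 RPKM, beside 1.29, 4.65 and 2.21 RPKM of IGFL1.

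**Figure D2:**
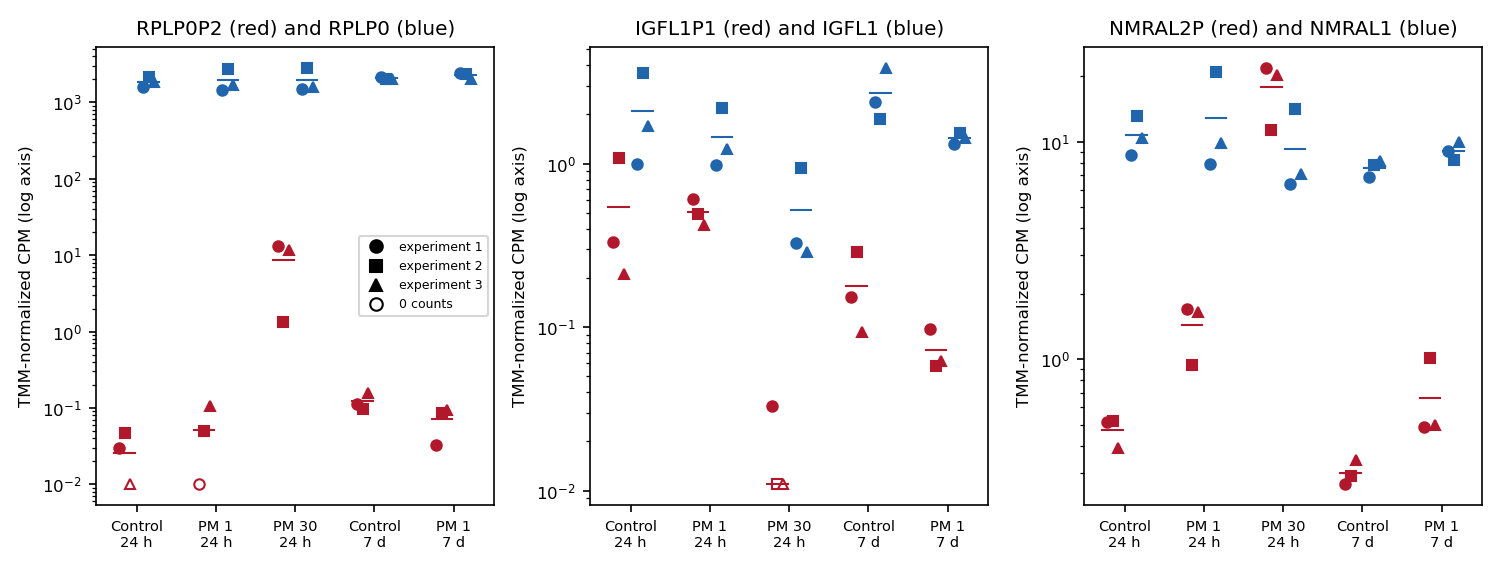
Level of each pseudogene (red) and its parent (blue) in every library, as TMM-normalized CPM on a log axis, by condition, with the marker shape giving the experiment, a dash the mean of 3 libraries, and open markers at the lower edge libraries with 0 counts. RPLP0P2 and NMRAL2P stand highest and IGFL1P1 lowest in the 3 libraries of 30 µg/cm2 at 24 h, whereas RPLP0 and NMRAL1 overlap with their controls.

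In the contrast that chose the pseudogenes, 4 of the 6 genes passed the threshold, a log2 fold change of 0.6 or more in size at an adjusted p-value below 0.05 (RPLP0P2, NMRAL2P, IGFL1P1 and IGFL1), where 8.07% of the 17599 tested genes passed it. The same 4 did not overlap between groups, which held for 22.8% of tested genes. As that contrast was used for the choice, nothing is read from these counts. The place of IGFL1 among the 4 was the least secure, since it did not pass when control replicate 2, control replicate 3, treated replicate 1 or treated replicate 3 was left out, nor in a fit of those 6 libraries alone.

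The repeated protocol took no part in the choice, so it is where the 6 genes could be tested. The main edgeR fit did not pair experiments. After daily 1 µg/cm2, 0 of the 6 genes passed its threshold, where 0.227% of tested genes did. DESeq2 gave an adjusted p-value for 5 of them, all but IGFL1P1, and 0 passed. One of the 6, NMRAL2P, had an unadjusted p-value under 0.05 in the main fit. With experiments entered as a replicate block, NMRAL2P and IGFL1 passed, in a fit that called 773 genes.

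NMRAL2P levels in experiments 1, 2 and 3 were 0.266, 0.289 and 0.345 CPM in the controls and 0.486, 1.01 and 0.499 CPM after daily exposure. Every treated library was above every control, and experiment 2 was the highest of them. Higher groups without overlap were found for 21.3% of tested genes. The log2 fold change was 1.14 (SE 0.40), 2.20-fold, with an adjusted p-value of 0.261 (edgeR). When experiments were entered as a replicate block it was 1.12 (SE 0.33, adjusted p = 0.0452), and without 24-h experiment 2 in the shared fit it was 1.15 (SE 0.33, adjusted p = 0.0170), both past the threshold. Over the 8 alternatives that kept all 6 libraries, adjusted p-values ran from 0.0170 to 0.349. Leaving out treated replicate 2 lowered the log2 fold change to 0.70. The response to daily exposure was smaller than that to a single 1 µg/cm2 by 0.47 on the log2 scale (SE 0.55), a difference within its error.

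IGFL1 levels after daily exposure were 1.33, 1.53 and 1.43 CPM, beside 2.39, 1.86 and 3.86 CPM in the controls. All treated libraries were below all controls, which held in the same direction for 21.6% of tested genes. On the log2 scale the change was -0.92 (SE 0.48), which had an adjusted p-value of 0.489 in edgeR. It passed the threshold with the replicate block at -0.87 (SE 0.24, adjusted p = 0.0378), without 24-h experiment 2 at -0.92 (SE 0.27, adjusted p = 0.0206), and in a fit of these 6 libraries alone at -0.91 (SE 0.27, adjusted p = 0.0283). The range over the 8 alternatives was 0.0206 to 0.602. Without control replicate 3, the highest library, the log2 fold change was -0.57.

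RPLP0P2, RPLP0, IGFL1P1 and NMRAL1 were not called in the repeated protocol, in the main comparison, with the replicate block or without 24-h experiment 2. IGFL1P1 had 4, 9 and 3 counts in the controls and 3, 2 and 2 after daily exposure, a fitted difference of -1.26 on the log2 scale (SE 0.76, adjusted p = 0.554 by edgeR) that became -0.72 without control replicate 2. RPLP0P2 stood at or near the floor in all 6 libraries and gets no fold (adjusted p = 0.847). RPLP0 was at 2254 ± 195 CPM after daily exposure and 2075 ± 64.2 CPM in the controls (SD, n = 3), which differ by 0.12 on the log2 scale (SE 0.26, adjusted p = 0.897). NMRAL1, at 9.11, 8.26 and 9.95 CPM beside 6.88, 7.78 and 8.13 CPM in the controls, did not overlap between groups but differed by only 0.26 on the log2 scale (SE 0.34, adjusted p = 0.818).

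**Figure D3:**
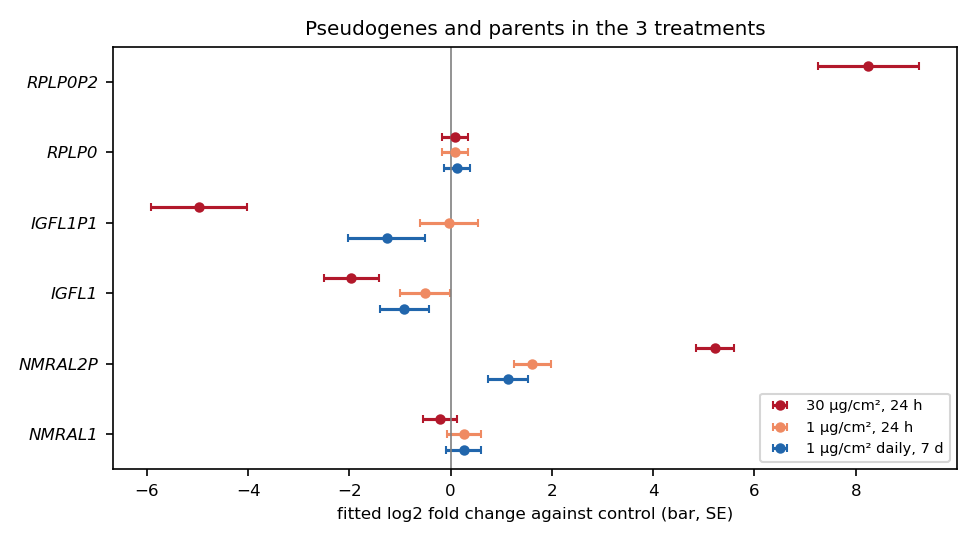
Fitted log2 fold change against the matched control (x axis, bars give the SE) of each gene for 30 µg/cm2 at 24 h (red), 1 µg/cm2 at 24 h (orange) and daily 1 µg/cm2 (blue), without RPLP0P2 at 1 µg/cm2, where its counts were at or near the floor. NMRAL2P lies above 0 in each treatment (5.22, 1.61 and 1.14) and NMRAL1 within 0.26 of 0. At 30 µg/cm2 RPLP0P2 rests on 2 counts over the controls and IGFL1P1 on 1 count over the treated libraries, so the text gives bounds for both.

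The ratio of pseudogene to parent was also compared in the repeated protocol, as log2 of counts per kilobase with 0.5 added to each count. For NMRAL2P over NMRAL1 it was -3.39 ± 0.70 after daily exposure and -4.16 ± 0.09 in the controls, and all treated libraries lay above all controls (exact permutation test, two-sided, p = 0.1, the smallest that 3 against 3 libraries allow). For RPLP0P2 over RPLP0 it was -14.72 ± 0.74 and -13.85 ± 0.31 (exact permutation p = 0.1), a ratio that rests on 7 and 11 counts in all. For IGFL1P1 over IGFL1 it was -2.97 ± 0.45 and -2.77 ± 1.26 (exact permutation p = 0.8). None of the 3 could have reached 0.05.

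At 24 h the same ratios are descriptions. The RPLP0P2 ratio was -15.52 ± 0.97 in the controls, -15.06 ± 1.33 after 1 µg/cm2 and -8.29 ± 2.36 after 30 µg/cm2. The NMRAL2P ratio was -4.01 ± 0.34, -2.64 ± 1.20 and 1.41 ± 1.14, and the IGFL1P1 ratio -0.95 ± 0.74, -0.33 ± 0.71 and -3.001 ± 1.53 (SD, n = 3). At the highest concentration the RPLP0P2 and NMRAL2P ratios lay above those of all 24-h controls. The IGFL1P1 ratios overlapped, with -1.71 in the highest treated and -1.80 in the lowest control library, and 2 of the treated values rest on 0 counts plus the added 0.5. With 2 added to each count its means were -1.52 ± 1.07 after 30 µg/cm2 and -0.81 ± 0.65 in the controls.

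**Figure D4:**
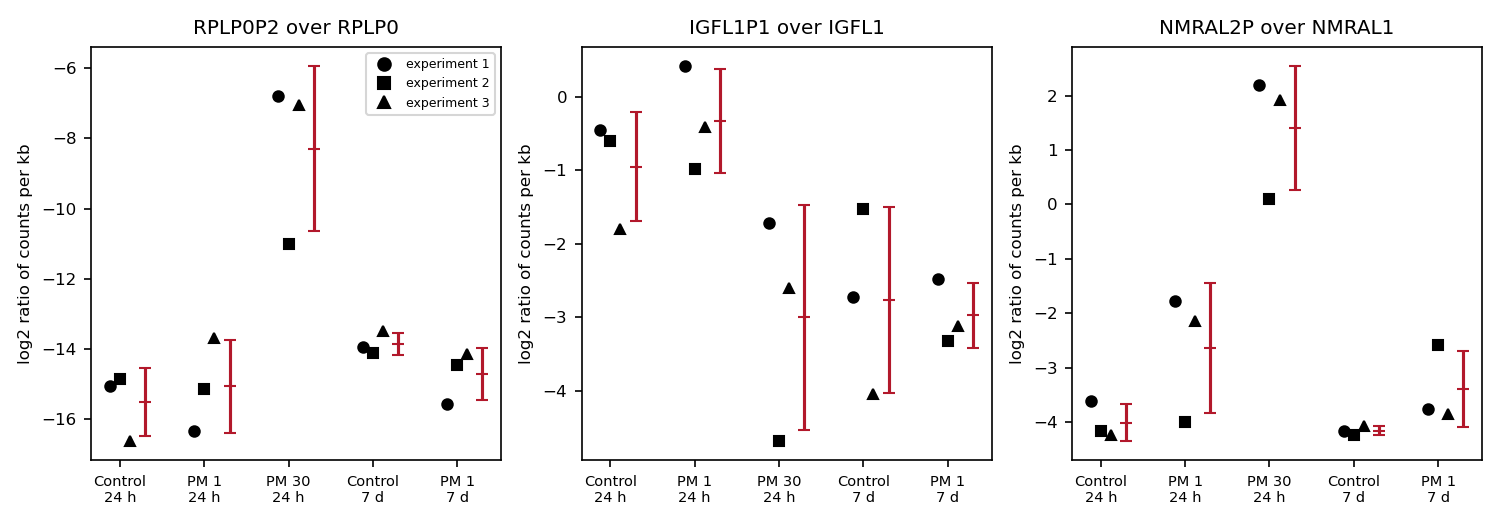
Log2 ratio of pseudogene to parent counts per kb in every library, by condition, with the marker shape giving the experiment and the red bar the mean ± SD of 3 libraries. The ratios of RPLP0P2 and NMRAL2P rise after 30 µg/cm2 at 24 h to -8.29 and 1.41, with experiment 2 the lowest of the 3 libraries in both.

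Between the controls of both protocols, which differ in time in culture and handling, the 3 parents gave no call, where 21.9% of tested genes were called. Log2 fold changes (repeated protocol minus 24 h) were 0.16 (SE 0.26, adjusted p = 0.676) for RPLP0, 0.39 (SE 0.48, adjusted p = 0.576) for IGFL1 and -0.50 (SE 0.34, adjusted p = 0.304) for NMRAL1 (edgeR). Without 24-h experiment 2, IGFL1 passed at 1.00 (adjusted p = 0.0120). The pseudogenes, compared with controls used in the choice, are given without p-values, at -1.52 (SE 0.62) for IGFL1P1 and -0.64 (SE 0.42) for NMRAL2P. RPLP0P2 held 2 counts over the 24-h controls and 11 over the others.

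Genes of the same pathways were read from lists of known members. Of the ribosomal stalk (RPLP0, RPLP1, RPLP2 and RPL12), 0 of 4 were called in any treatment, 0 had an unadjusted p-value under 0.05, and 0 were called by DESeq2. Their log2 fold changes for 30 µg/cm2 ran from 0.09 to 0.37, with a median of 0.17 beside 0.03 for all tested genes. The same counts of 0 held for the 50 tested ribosomal protein genes of the large subunit, whose median was 0.07. RPLP0P2 was thus high in libraries in which transcripts of the stalk and of the large subunit were not called.

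The 16 targets of NRF2, listed with earlier results of these data known, had a median log2 fold change of 2.02 after 30 µg/cm2. Of them, 12 rose and 0 fell, where 3.82% of tested genes rose and 4.24% fell. They included NQO1, a quinone reductase (1.95, SE 0.17, adjusted p = 2.1e-05), HMOX1, which degrades heme (3.25, SE 0.27, adjusted p = 1.5e-05), TXNRD1, a thioredoxin reductase (2.37, SE 0.35, adjusted p = 0.00070), and OSGIN1, an oxidative stress-induced growth inhibitor (3.38, SE 0.30, adjusted p = 2.1e-05). NMRAL2P, at 5.22 in the same contrast, was beyond the highest of the 16, which was 3.38. As NMRAL2P was chosen by that contrast, nothing is read from its place beyond them. After 1 µg/cm2 at 24 h, 0 of the 16 were called, 4 had an unadjusted p-value under 0.05, and 2 were called with the replicate block and 2 by DESeq2, with a median of 0.35. After daily exposure 0 were called by edgeR, with the replicate block or by DESeq2, 1 had an unadjusted p-value under 0.05, and the median was 0.07.

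Of 6 genes of the IGFL family, 4 were tested, and 2 fell after 30 µg/cm2, IGFL1 itself and the antisense transcript IGFL2-AS1 (-3.71, SE 0.87, adjusted p = 0.0145). IGFL4 was at -1.32 (SE 0.80, adjusted p = 0.359) and IGFLR1, the receptor of IGFL1, at -0.54 (SE 0.55, adjusted p = 0.613). In the other treatments 0 of 4 were called by edgeR or DESeq2 and 0 had an unadjusted p-value under 0.05, while with the replicate block 1 fell after daily exposure, which was IGFL1. Of NMRAL1 and its neighbours HMOX2, CDIP1 and UBALD1, 0 of 4 were called in the 3 treatments by edgeR or DESeq2, with 1 at an unadjusted p-value under 0.05 after 30 µg/cm2 and 1 called higher there with the replicate block.

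Genes beside the 6 members were examined next, since reads of overlapping genes cannot be separated without knowledge of the strand used in counting. IGFL1P1 lay within the span of IGFL2-AS1 on the opposite strand, with 0 exon bases shared. IGFL2-AS1 had 33, 217 and 35 counts in the 24-h controls and 7, 14 and 4 after 30 µg/cm2, and the controls' high library was experiment 2, as it was for IGFL1P1 and IGFL1. On the same strand, ENSG00000268460 between IGFL1P1 and IGFL1 fell by 2.11 on the log2 scale (adjusted p = 0.0153), and HIF3A, a hypoxia-inducible factor downstream of IGFL1, fell by 2.93 (adjusted p = 0.00112). Reduced transcripts were therefore found at the nearest tested gene on each side of IGFL1, 14915 bases before it and 65803 bases after it. IGFL4, the nearest tested gene before IGFL1P1 and 119120 bases away, was not called (-1.32, adjusted p = 0.359 by edgeR). Among all tested genes 4.24% were called lower, and a shared cause was not tested.

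IGFL1 shared 95 exon bases with ENSG00000269745 on the opposite strand, which had 0 to 2 counts per library. NMRAL1 shared 228 exon bases with HMOX2 on the opposite strand, which had 166 to 661 counts, so NMRAL1 counts are uncertain to that extent. RPLP0P2 and NMRAL2P overlapped with no tested gene. The nearest tested gene before RPLP0P2 was SYT7, a synaptotagmin, 33888 bases away on the opposite strand, and it rose by 1.84 on the log2 scale after 30 µg/cm2 (adjusted p = 0.00102), from 34, 41 and 45 counts to 179, 106 and 137. DAGLA, 40984 bases after it on the same strand, was at -0.27 (adjusted p = 0.400). Beside NMRAL2P, TRA2B was at -0.00 (adjusted p = 0.991) and ETV5 at 1.39 (adjusted p = 0.181).

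The genes most like each pseudogene were found by the Pearson correlation of log2 CPM over the 15 libraries. These values describe libraries that share treatments and experiments, and they were the highest among all tested genes, so no test is attached. For RPLP0P2 they were UPP1, a uridine phosphorylase (r = 0.963), CYP4F11, a fatty acid hydroxylase of the cytochrome P450 family (r = 0.961), and TMEM41B (r = 0.959). Outside 30 µg/cm2 RPLP0P2 had at most 5 counts in a library, so its r values rest mainly on the libraries that served to choose it. CYP4F11 had 66, 36 and 45 counts in the 24-h controls and 1275, 340 and 840 after 30 µg/cm2, with experiment 2 the lowest treated library as for RPLP0P2. For NMRAL2P they were OSGIN1 (r = 0.964), ALAS1, which starts heme synthesis (r = 0.949), and SPOCD1 (r = 0.949). For IGFL1P1 they were PDGFRB, a platelet-derived growth factor receptor (r = 0.931), COL5A2, a fibrillar collagen chain (r = 0.930), and PTPRQ (r = 0.924).

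Promoters of RPLP0, IGFL1 and NMRAL1 (2 starts) were searched on both strands, as 300 bases around each start in RefSeq. The antioxidant response core TGACNNNGC, present in 13.3% of 35116 promoters, and the AP-1 motif TGANTCA, present in 7.71%, occurred in 0 of these 4. The xenobiotic response core GCGTG, present in 36.5%, occurred in that of RPLP0 and in 1 of the 2 of NMRAL1. Promoters of RPLP0P2, IGFL1P1 and NMRAL2P were not searched here.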

How the data were processed

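The authors aligned single-end reads with STAR 2.5.3 to GRCh38, counted them per gene with featureCounts and deposited raw counts without normalization, with the exon length of each gene. The labels list hg19, but 57370 of 57437 genes matched by identifier overlapped their GENCODE v44 spans on GRCh38. The annotation, the strand and the handling of reads with several placements are not given in the sources used here.

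All 15 libraries were fitted together with edgeR 4.0.16 in R 4.3.3 (quasi-likelihood test in its legacy mode, TMM, filterByExpr, 17599 genes), with one mean per condition. A call needed a p-value below 0.05 after Benjamini-Hochberg adjustment over all tested genes and a log2 fold change of 0.6 or more in size. SEs were taken as log2 fold change over the root of F. CPM and RPKM use TMM-scaled totals and the deposited lengths. The fit was tested on simulated data. The members and lists were chosen with earlier results of these data known. Named genes are the 6 members, list members, the nearest tested or overlapping genes, and the 3 most correlated genes per pseudogene.

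The series record gives replicate numbers as experimental batches, so same-numbered libraries form pairs. The main fit and the permutation test did not use this pairing, and the replicate block did. For same-numbered libraries, deviations from group means correlated at 0.201 to 0.721 (24 h) and 0.121 to 0.181 (repeated protocol). For libraries of different numbers they correlated at -0.683 to 0.453 and -0.127 to -0.034. Alternatives were RLE scaling, other filters, the replicate block, DESeq2 1.42.0, edgeR's current mode, fewer libraries, and for ratios an added count of 2. Sequences were read from GRCh38 (hg38) and aligned with Biopython 1.88 (match 2, mismatch -3, gap open -5, gap extension -2).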

Additional observations from a re-analysis of the deposited data

How the results depend on the processing

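For the 6 genes in 4 comparisons, 287 of 319 alternative values with an adjusted p-value kept their direction and their side of the threshold. The numbers of genes called (40 for daily 1 µg/cm2, 11 for 1 µg/cm2, 1420 for 30 µg/cm2 and 3860 between controls) were not stable, and the cause was not tested. With no filter 92 and 38 genes were called for daily and single 1 µg/cm2, and with DESeq2 250 and 39. With the replicate block the daily, 1 and 30 µg/cm2 comparisons gave 773, 74 and 2681, fits of 2 groups gave 1029, 2 and 360, and fits without 24-h experiment 2 gave 1083, 378 and 3430. Leaving out each library in turn gave 0 to 11, 4 to 45, 794 to 2706 and, between controls, 2832 to 4071. The lowest 30 µg/cm2 count came without treated replicate 1 and the highest without treated replicate 2. After daily exposure the replicate block turned the calls of NMRAL2P and IGFL1 and of no other member, and it turned no call of a parent in the 24-h treatments. With the block NMRAL2P was at 1.62 on the log2 scale after 1 µg/cm2 at 24 h, given without a test because its controls served for the choice.

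All values whose direction turned belonged to 24-h comparisons. For 1 µg/cm2 at 24 h, IGFL1P1 went from -0.03 to 0.15 with the block, 0.048 in edgeR's current mode and 0.91 without 24-h experiment 2. Without that experiment RPLP0 was at -0.12 and NMRAL1 at -0.092, and RPLP0 for 30 µg/cm2 at -0.15. With single libraries left out, the 1 µg/cm2 values ran from -0.21 (without treated replicate 3) to 1.60 for RPLP0P2, whose value with all libraries was 0.96 on counts at the floor, -0.25 to 0.27 for RPLP0, -0.43 to 0.90 for IGFL1P1, -0.89 to 0.12 (without control replicate 2) for IGFL1 and -0.27 to 0.53 for NMRAL1, and RPLP0 for 30 µg/cm2 from -0.26 to 0.24. For 30 µg/cm2 the same ranges were 7.72 to 8.76 for RPLP0P2, -6.92 to -4.06 for IGFL1P1 and -2.72 to -1.34 for IGFL1. They were 5.03 to 5.46 for NMRAL2P and -0.67 to -0.02 for NMRAL1. These values of RPLP0P2 rest on at most 2 counts over the controls, and those of IGFL1P1 on at most 1 count over the treated libraries. The size of both changes is therefore given as bounds. Without 24-h experiment 2 RPLP0P2 went from 8.25 to 9.24 and IGFL1P1 from -4.97 to -3.58. The bounds without that experiment, and with single libraries left out (58.1-fold to 110-fold for RPLP0P2 and 2.36-fold to 6.13-fold for IGFL1P1), were added after seeing the data. With 2 added to each count, the log2 ratio of RPLP0P2 to RPLP0 was -14.18 in the 24-h controls and -13.39 in the controls of the repeated protocol, that of IGFL1P1 -2.40 after daily exposure, and that of NMRAL2P -3.95 in the controls of the repeated protocol. IGFL1P1 had too few counts to be tested in the fit of the 2 groups alone after daily exposure or with the filter at 1 CPM, and RPLP0P2 in the former. Low counts limit what could be detected for RPLP0P2 outside 30 µg/cm2 and for IGFL1P1 after daily exposure.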
